A study of Homo sapiens with 6 samples.

Results

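A set of 60 genes of mitosis and of the passage from G2 into mitosis was followed in NCI-H460, an established human lung cancer line of the large cell type. They were chosen by symbol from a fixed list of 60, out of 20046 genes named on the array, and all 60 had at least 1 probe there. Of these, 59 were detected on at least 2 of the 6 arrays and could be compared. The tested 59 fall into 9 roles: spindle motors, kinetochore proteins, the spindle checkpoint, the chromosomal passenger complex, condensin and chromosome structure, the anaphase-promoting complex (APC) with sister separation, the cyclin-CDK1 switch, mitotic kinases and transcription factors, and spindle proteins with cytokinesis.

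Most of these genes are transcribed mainly in G2 and mitosis. They are low in cells that rest or have left the cycle, so their summed level is widely read as a mark of dividing cells. During mitosis, motors and microtubule-binding proteins build the spindle, kinetochores attach the chromosomes to it, and the checkpoint holds the APC back until all are attached. CDK1 bound to its cyclins starts mitosis, and the APC ends it by marking cyclin B and securin for destruction.

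The study set a CSC-rich population (cancer stem cell-rich, propagated from NCI-H460 as spheroids) beside the parental wild type cells. Within each population, 1 culture condition was treated with an agent named PNAs-A15, 1 was treated with a scramble, and 1 was a control; the protocol gives 6 h for the agent. The sources used here do not spell out the agent's code name, and the treated CSC-rich array, whose label shortens the name, was taken to have the same agent. Both populations were kept in RPMI medium, and 10% fetal bovine serum is given for the parental culture alone. Population cannot be told apart from any difference in serum or from growth as spheroids. Expression was read on HumanHT-12 v4 BeadChips from bulk RNA, with 1 array for each of the 6 groups, and nothing says that the 3 arrays of a population came from separate cultures. In bulk RNA, fewer dividing cells and less of these transcripts per cell cannot be told apart.

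The arrays were not alike. The share of the 47323 probes detected (detection p under 0.05) ran from 36.5% on the parental PNAs-A15 array to 42.79% on the parental scramble array. Across genes, Pearson's r between the parental PNAs-A15 array and each other array was 0.828 to 0.871, against 0.912 to 0.992 among the other 5. Population differences are therefore also given without it. Of markers fixed to check the cells, EPCAM, KRT18 and CDH1 of the epithelial list were detected on no array, with 2 of the 6 listed genes on the array detected in each CSC-rich sample and 2 to 3 in each parental one. Of the immune list, 2 to 4 of the 6 genes on the array were detected in each CSC-rich sample and 2 to 3 in each parental one, with PTPRC and CD3E detected in none. Of the 4 endothelial genes, 0 were detected in CSC-rich samples and 0 to 1 in parental ones, PECAM1, VWF and CDH5 in none. Of the fibroblast list, 4 of 7 genes were detected on each CSC-rich array and 3 to 5 on each parental array, COL1A1 and PDGFRA on none.

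CSC-rich cells had far lower levels of nearly all the mitotic genes than parental cells. The median normalized level of the 59 was 8.12, 8.37 and 7.93 on the PNAs-A15, scramble and control CSC-rich arrays, against 10.91, 11.24 and 11.50 on the parental arrays of the same treatments (log2 signal). In the deposited signals before any normalization, the medians were 414.4, 381.7 and 379.4 in CSC-rich cells, against 1437, 2985 and 3357 in parental cells. The parental PNAs-A15 array was the lowest of the parental arrays, and it was dim, with a median of 390.8 over all tested genes against 547 to 712.9 on the other 5 arrays. From here on, 3 values of a population stand in the order PNAs-A15, scramble, control, and are normalized log2 signals.

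**Figure D1:**
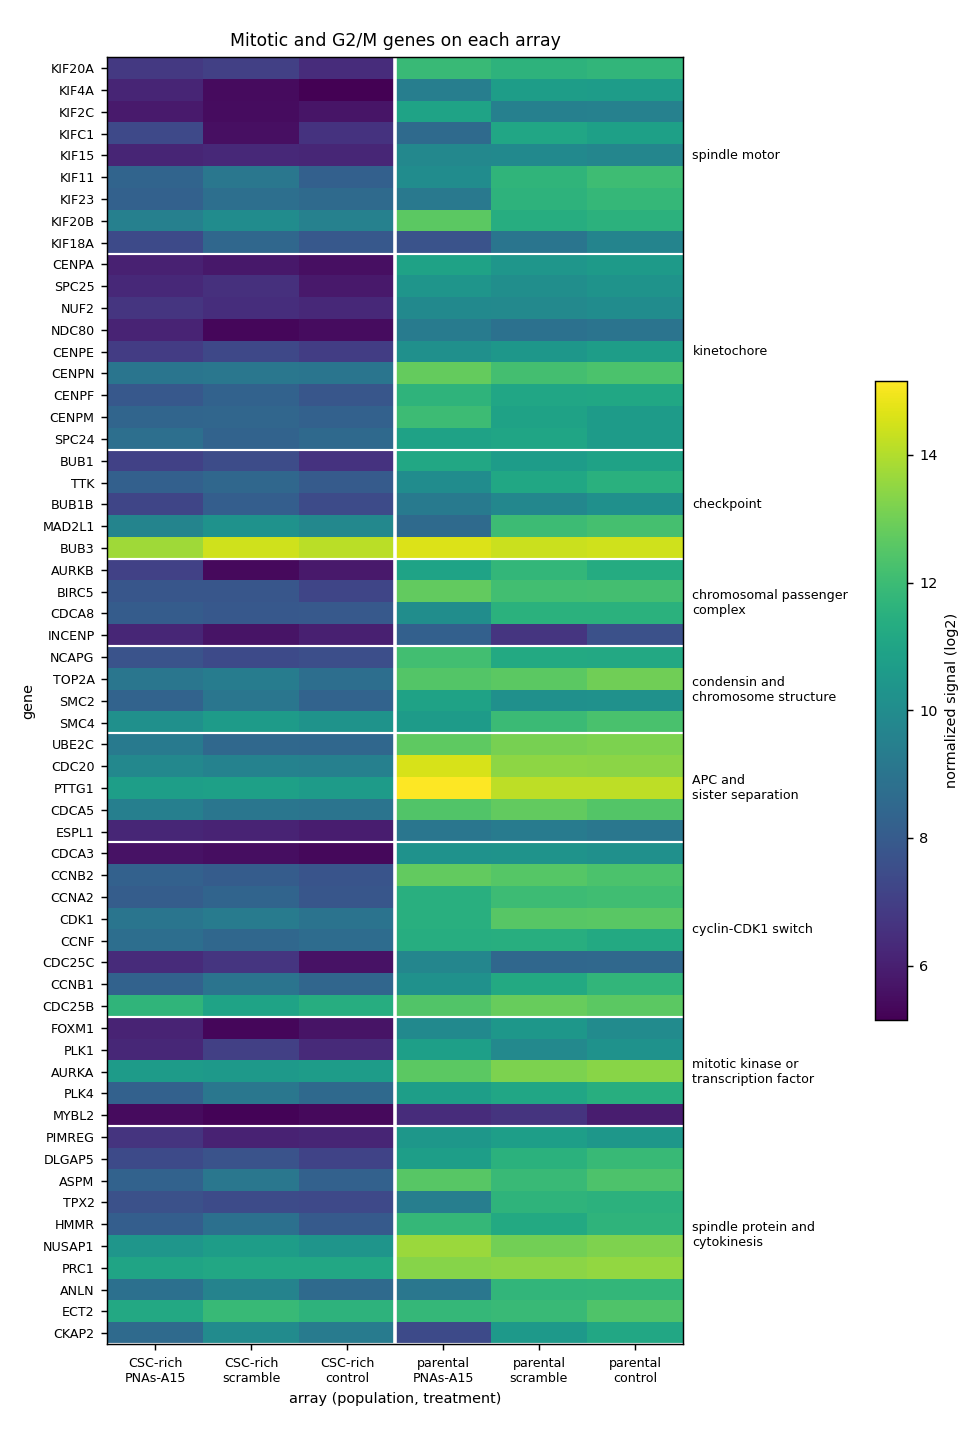
Normalized signal (log2, colour) of the 59 tested mitotic and G2/M genes (rows, grouped by role) on the 6 arrays (columns). The 3 CSC-rich columns on the left are darker than the 3 parental columns on the right for most rows, with array medians of 7.93 to 8.37 against 10.91 to 11.50.

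In limma's additive model of population and treatment, 45 of the 59 genes were lower in CSC-rich cells at an adjusted p under 0.05 and 0 were higher. Over all 12101 genes tested, 1.47% were lower and 0.835% higher. The 59 differences ran from -5.24 to -0.37 (log2), with a median of -3.28 and quartiles of -3.91 and -2.34, where the median over all genes was 0.01. All 3 CSC-rich arrays lay below all 3 parental arrays for 52 genes (17.2% of all genes), and 48 were at least 2-fold lower in each of the 3 treatment pairs (2.78% of all genes). Of the 59, 5 (KIF4A, CENPA, NDC80, CDCA3 and MYBL2) passed the detection filter only through their parental arrays. In a separate fit of only the genes detected on all 6 arrays, 40 of 48 mitotic genes were lower past the threshold. KIF20B, KIF23 and SMC2 gained the call in that fit, and its share over all genes is not given. Without any filter on dim probes 0 of 60 passed, with a lowest adjusted p of 0.062 in limma's fit over 20046 genes. There 55 of the 60 had an unadjusted p under 0.05, all of them lower, beside 2954 of the 20046 in either direction. On the unnormalized signals, 12 passed, with a median of -2.58.

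The 3 treatment pairs gave like differences one by one, described here without a test. The median CSC-rich minus parental difference was -3.19 among PNAs-A15 arrays, -3.05 among scramble arrays and -3.53 among control arrays (log2), where the medians over all genes were -0.14, 0.14 and 0.04. In the control pair, which holds neither treatment, 56 of 59 genes were at least 2-fold lower and 0 higher (5.91% and 6.7% of all genes). In the scramble pair these counts were 54 and 0 (13.2% and 15.9%), and in the PNAs-A15 pair 49 and 2 (20% and 18.5%). The sign changed between pairs for 3 genes: BUB3 (-0.89, 0.11 and -0.34), MAD2L1 (1.08, -1.77 and -2.37) and CKAP2 (1.22, -0.53 and -1.86).

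**Figure D2:**
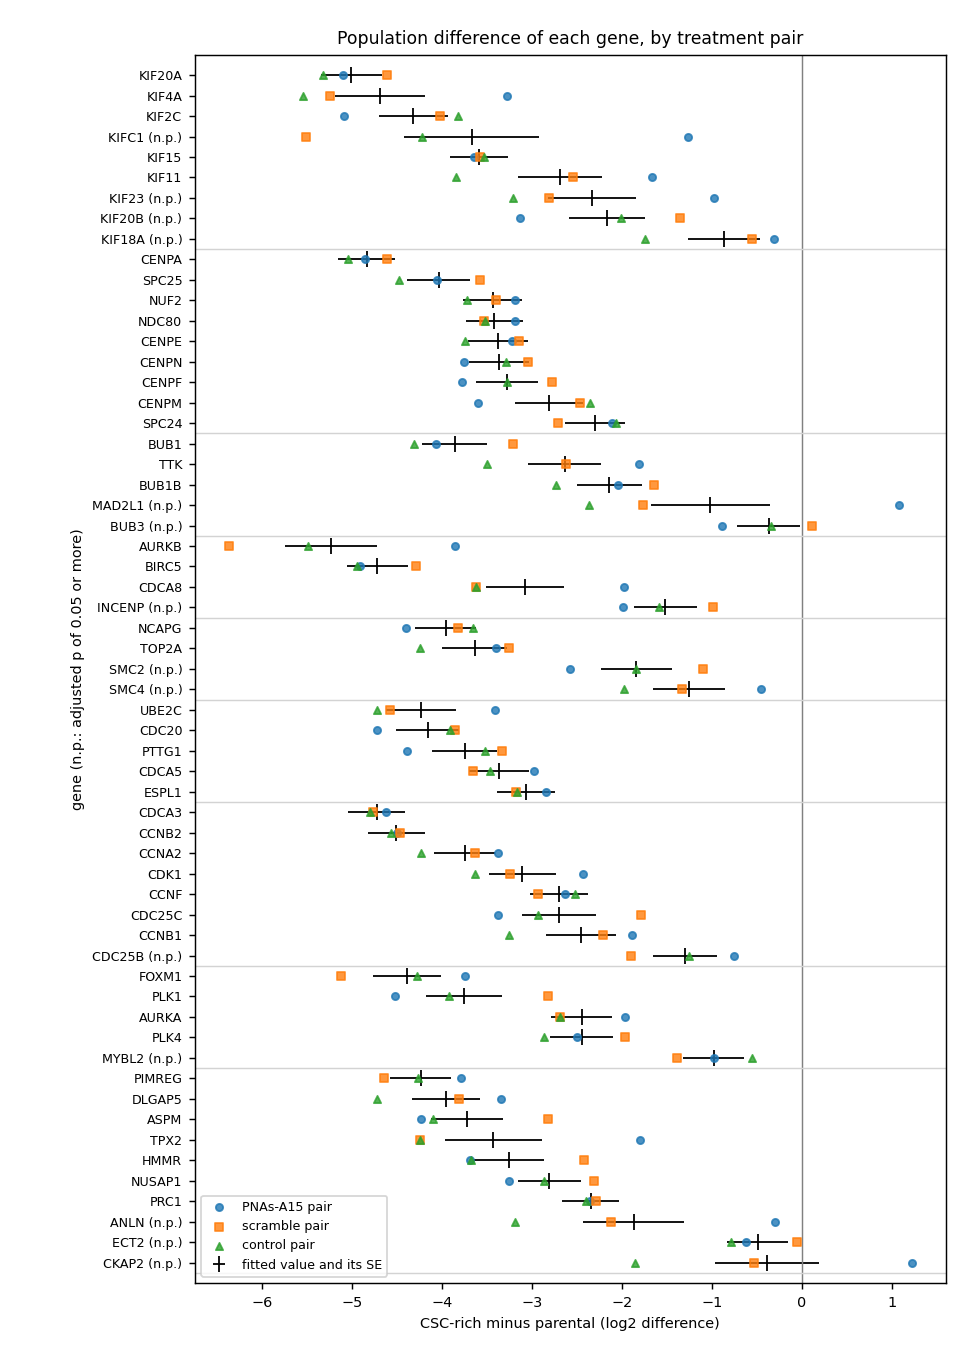
CSC-rich minus parental log2 difference of each gene (rows, grouped by role) in the PNAs-A15, scramble and control pairs (coloured points), with the fitted value of limma's additive model (black tick) and its standard error (bar). The 59 fitted values lie between -5.24 and -0.37, and 14 genes with an adjusted p of 0.05 or more carry the mark n.p.

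Because many G2/M promoters share an element, promoter sequences are shown for 4 genes with a large difference between populations. CKAP2, with a small fitted difference (log2 -0.39), is shown too. Its difference was -1.86 in the control pair, and -1.38 over all arrays by its other probe. Textbook G2/M promoters hold a cell cycle genes homology region (CHR), read by MuvB complexes that repress in resting cells and activate with MYBL2 and FOXM1 in G2, and CCAAT boxes read by NF-Y. Windows of 250 bases before to 50 bases after the annotated start (RefSeq, GRCh38.p14) were matched by symbol for 51 of the 60 genes. Stretches of 130 bases before to 30 after the start are given 5′ to 3′ on the gene's own strand. Capitals mark the CHR letters, TTTGAA on either strand or the palindrome TTTAAA, and the letters CCAAT on either strand. The set was chosen after the values were seen. KIF20A lies at chr5:138178982-138179141 (plus strand), CCNB2 at chr15:59105016-59105175 (plus), CDCA3 at chr12:6851257-6851416 (minus), PLK1 at chr16:23678759-23678918 (plus) and CKAP2 at chr13:52455858-52456017 (plus).
KIF20A: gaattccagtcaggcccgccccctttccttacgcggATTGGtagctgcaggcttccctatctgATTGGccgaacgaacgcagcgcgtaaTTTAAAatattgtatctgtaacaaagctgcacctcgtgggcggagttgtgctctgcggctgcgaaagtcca
CCNB2: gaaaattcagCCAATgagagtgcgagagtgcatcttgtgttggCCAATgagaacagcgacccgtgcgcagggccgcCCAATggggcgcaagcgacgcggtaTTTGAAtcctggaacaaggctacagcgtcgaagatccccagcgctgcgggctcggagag
CDCA3: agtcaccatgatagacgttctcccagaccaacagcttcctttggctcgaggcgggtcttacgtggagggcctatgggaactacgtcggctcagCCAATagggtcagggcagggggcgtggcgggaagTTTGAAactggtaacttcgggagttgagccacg
PLK1: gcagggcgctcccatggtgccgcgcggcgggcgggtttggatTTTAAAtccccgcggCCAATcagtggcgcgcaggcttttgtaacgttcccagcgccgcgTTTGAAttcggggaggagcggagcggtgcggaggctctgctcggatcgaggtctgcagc
CKAP2: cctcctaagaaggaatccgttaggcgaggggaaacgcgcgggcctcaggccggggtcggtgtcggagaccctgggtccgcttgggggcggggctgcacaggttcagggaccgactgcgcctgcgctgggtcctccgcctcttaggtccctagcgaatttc

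In these stretches the first base of a CHR match stood at -41 in KIF20A, at -29 in CCNB2, at -3 in CDCA3 and at -88 and -29 in PLK1, counted so that -1 is the base before the start. CCAAT matches stood upstream of the CHR nearest the start in each of these 4 promoters, and CCNB2 had 3 of them, at -120, -87 and -54. The CKAP2 stretch held neither set of letters, which sets it apart from most genes not past the threshold, by the shares below. Over the 300-base windows and both strands, 44 of 51 matched genes (86.3%) held a CHR match, against 24.5% of 15792 other protein-coding genes with a window. CCAAT letters were in 38 of 51 (74.5%), against 42.0%, and both were in 32 (62.7%), against 10.2%. Matches of the 2 kinds were counted apart, so overlapping letters count for each. The CHR share was 86.5% among 37 genes lower past the threshold and 84.6% among 13 that were not, and the CCAAT share was 78.4% and 61.5%. Both kinds were in 64.9% and 53.8%. A match is a description of the letters and not of a bound site, and these shares carry no test.

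All 9 tested spindle motors had fitted differences below 0 and 5 passed, with a median of -3.59. KIF20A, the kinesin that carries the passenger complex to the central spindle, lay at 6.82, 7.02 and 6.41 in CSC-rich cells, against 11.93, 11.63 and 11.74 in parental cells. The populations did not overlap, and KIF20A was 32.3-fold lower in CSC-rich cells (log2 -5.01 ± 0.34, SE of limma's fit over 3 arrays per population, adjusted p 0.0073). The chromosome-bound kinesin KIF4A lay at 6.16, 5.44 and 5.14, of which 1 was detected, against 9.43, 10.70 and 10.68 (-4.69 ± 0.50, adjusted p 0.010 by limma). In the scramble and control pairs, where KIF4A was undetected in CSC-rich cells, it was at least 27.8-fold and 32.7-fold lower. KIF4A passed the detection filter only through its parental arrays. Its fitted difference includes values near background, and its p-value adds no support. KIF2C, which takes microtubules apart at centromeres, KIF11, which pushes the spindle poles apart, and KIF15, which backs it up, were lower at -4.32, -2.69 and -3.59. KIF18A, which limits chromosome swings at the metaphase plate, overlapped between populations, at 7.38, 8.50 and 7.91 against 7.69, 9.05 and 9.66 (-0.87 ± 0.40, limma adjusted p 0.30). KIF20B (-2.17), KIF23 (-2.33), of the central spindle, and KIFC1 (-3.67), which focuses the spindle poles, had adjusted p-values of 0.056, 0.069 and 0.066 in limma's fit, though their arrays did not overlap. Without either PNAs-A15 array all 4 of these passed, at limma adjusted p-values of 0.033 for KIF18A, 0.0023 for KIF20B, 2.1e-05 for KIF23 and 1e-06 for KIFC1. In that fit, also used for genes below, 1057 of all 12101 genes were lower and 1267 higher.

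All 9 kinetochore genes were lower past the threshold, with a median of -3.38 and a range of -4.84 to -2.30. CENPA, the histone H3 variant that marks centromeres, lay at 6.06, 5.79 and 5.55 in CSC-rich cells, with 1 of the 3 arrays detected, against 10.92, 10.41 and 10.61 in parental cells. The arrays did not overlap, and CENPA was at least 22.8-fold lower in the scramble pair and at least 31.0-fold lower in the control pair, where the CSC-rich arrays did not detect it. Its fitted difference of -4.84 ± 0.32 (adjusted p 0.0073 by limma) includes those values near background. CENPA and NDC80 passed the detection filter only through their parental arrays, so their calls add no support. The 4 subunits of the Ndc80 complex, which grips microtubule ends, were all lower, SPC25 at -4.04, NUF2 at -3.44, NDC80 at -3.42 and SPC24 at -2.30. SPC25 lay at 6.29, 6.52 and 5.81 against 10.35, 10.09 and 10.29, and SPC24, with the smallest difference of the 9, at 8.80, 8.32 and 8.55 against 10.91, 11.03 and 10.62. The arrays of the populations stood apart for both. CENPM and SPC24 lost the call without either scramble array, at adjusted p-values of 0.050 and 0.13 in limma's fit. CENPE, a kinesin that moves chromosomes to the plate, CENPF, an outer kinetochore protein, and CENPN, which binds CENPA nucleosomes, were lower at -3.38, -3.28 and -3.37.

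The spindle checkpoint was the role with the smallest median, -2.14, and 3 of its 5 genes passed. BUB1, the kinase that recruits the others to kinetochores, lay at 7.07, 7.48 and 6.62 in CSC-rich cells, against 11.14, 10.69 and 10.93 in parental cells (-3.86 ± 0.36, limma adjusted p 0.0083). The kinase TTK, at the top of the checkpoint, lay at 8.20, 8.50 and 8, against 10.00, 11.11 and 11.50 (-2.64 ± 0.41, limma adjusted p 0.030, and 0.092 without either scramble array). Neither gene overlapped between populations, nor did BUB1B, the checkpoint protein that binds CDC20, at -2.14. BUB3, their partner, was high on all 6 arrays and overlapped, at 13.74, 14.45 and 14.11 against 14.63, 14.35 and 14.45 (-0.37 ± 0.35, limma adjusted p 0.61). MAD2L1, which blocks CDC20, lay at 9.68, 10.23 and 9.83 in CSC-rich cells, against 8.59, 12 and 12.20 in parental cells. Its parental PNAs-A15 value alone lay below the CSC-rich ones, and its difference of -1.02 ± 0.66 did not pass (limma adjusted p 0.44). Without either PNAs-A15 array the MAD2L1 difference was -2.07 and passed at a limma adjusted p of 0.00055.

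In the chromosomal passenger complex, which corrects wrong attachments and then directs cytokinesis, 3 of 4 genes passed and the median was -3.90. Its kinase AURKB lay at 7.08, 5.39 and 5.82 in CSC-rich cells, with 2 of 3 arrays detected, against 10.95, 11.76 and 11.31 in parental cells (-5.24 ± 0.51, limma adjusted p 0.0083). BIRC5 (survivin) lay at 7.83, 7.84 and 7.22, against 12.75, 12.13 and 12.17, and was 26.3-fold lower (-4.72 ± 0.34, limma adjusted p 0.0073). Both were clear of any overlap. CDCA8 (borealin) was lower at -3.08. The scaffold INCENP lay at 6.22, 5.67 and 6.04, with 2 of 3 detected, against 8.20, 6.67 and 7.63, with no overlap but an adjusted p of 0.087 in limma's fit (-1.52 ± 0.35), and 0.012 without either PNAs-A15 array.

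Of the condensin and chromosome structure genes, 2 of 4 tested passed and the median was -2.74. NCAPG, a subunit of condensin I, lay at 7.71, 7.38 and 7.53 in CSC-rich cells, against 12.11, 11.21 and 11.19 in parental cells (-3.96 ± 0.34, limma adjusted p 0.0083). TOP2A, the topoisomerase that untangles sister DNA, lay at 9.06, 9.36 and 8.75, against 12.47, 12.62 and 13.00 (-3.64 ± 0.36, limma adjusted p 0.0083). For both, each CSC-rich array was below each parental one. The condensin core ATPases differed less: SMC2 was at -1.84 with a limma adjusted p of 0.071, and SMC4 lay at 10.16, 10.64 and 10.30 against 10.63, 11.97 and 12.28, which overlap (-1.26 ± 0.40, limma adjusted p 0.16). Both passed without either PNAs-A15 array, at 0.0062 and 0.0027. NCAPH, the other condensin I subunit listed, was not detected on any array and was not tested.

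All 5 genes of the APC and of sister separation passed, with a median of -3.75. UBE2C, the E2 enzyme of the APC, lay at 9.25, 8.51 and 8.47 in CSC-rich cells, against 12.66, 13.09 and 13.19 in parental cells (-4.24 ± 0.39, limma adjusted p 0.0083). CDC20, the mitotic activator of the APC, lay at 9.83, 9.60 and 9.51, against 14.55, 13.46 and 13.42, which is 17.9-fold lower (-4.16 ± 0.35, limma adjusted p 0.0083). ESPL1 (separase), the protease that cuts cohesin, had the smallest difference of the 5 and lay at 6.21, 6.14 and 5.94, against 9.06, 9.32 and 9.11 (-3.07 ± 0.32, limma adjusted p 0.0098). For all 5, each CSC-rich array was below each parental array. PTTG1 (securin), which holds separase inactive, and CDCA5 (sororin), which protects cohesion, were lower at -3.75 and -3.37. By contrast, of 15 tested genes for the core APC subunits and the regulators FZR1 and FBXO5, 0 passed in limma's fit and their median was -0.43.

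In the cyclin-CDK1 switch 7 of 8 genes passed, with a median of -2.90. CDCA3, which promotes the destruction of a CDK1-inhibiting kinase, lay at 5.61, 5.53 and 5.35 in CSC-rich cells, detected on 0 arrays, against 10.23, 10.30 and 10.15 in parental cells. It was at least 22.1-fold lower, counted from the lowest signal among detected probes of each CSC-rich array. CDCA3 passed the detection filter only through its parental arrays, so its limma adjusted p of 0.0073 adds no support. CCNB2 (cyclin B2) lay at 8.27, 8.04 and 7.76, against 12.77, 12.50 and 12.33, and was 22.8-fold lower (-4.51 ± 0.32, limma adjusted p 0.0073). The 3 treatment pairs of CCNB2 differed by -4.50, -4.47 and -4.57, nearly the same value each time. CCNA2 (cyclin A2), CDK1 itself, CCNB1 (cyclin B1) and the cyclin-like ubiquitin ligase subunit CCNF were lower at -3.75, -3.11, -2.46 and -2.70. Of the CDC25 phosphatases that switch CDK1 on, CDC25C was lower at -2.70 and CDC25B was not past the threshold. CDC25B lay at 11.69, 10.96 and 11.38, against 12.44, 12.85 and 12.64, without overlap (-1.30 ± 0.36, limma adjusted p 0.13, and 0.0037 without either PNAs-A15 array).

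Among the mitotic kinases and transcription factors 4 of 5 passed, with a median of -2.45. FOXM1, the forkhead factor that drives G2/M genes, lay at 6.15, 5.30 and 5.68 in CSC-rich cells, with 2 of 3 detected, against 9.90, 10.43 and 9.97 in parental cells (-4.39 ± 0.38, limma adjusted p 0.0083). PLK1, a kinase of mitotic entry and spindle assembly, lay at 6.27, 7.05 and 6.33, against 10.81, 9.87 and 10.25 (-3.76 ± 0.42, limma adjusted p 0.012). Neither overlapped. The centrosomal kinase AURKA and PLK4, which starts centriole duplication, were lower at -2.45 each. MYBL2 (B-MYB), the MuvB partner, was detected on no CSC-rich array and was dim in parental cells too, at 5.45, 5.25 and 5.41 against 6.43, 6.65 and 5.96. It was at least 1.5-fold lower, and the fitted difference did not pass (limma adjusted p 0.20).

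Of the spindle proteins and cytokinesis genes 7 of 10 passed, with a median of -3.04. PIMREG, a regulator of the metaphase to anaphase step, lay at 6.66, 6.11 and 6.16 in CSC-rich cells, against 10.45, 10.77 and 10.43 in parental cells (-4.24 ± 0.34, limma adjusted p 0.0083). DLGAP5, which stabilises fibres at kinetochores, lay at 7.41, 7.70 and 7.16, against 10.76, 11.52 and 11.89 (-3.96 ± 0.38, limma adjusted p 0.0083). Their arrays did not overlap. ASPM, a spindle pole protein, TPX2, which activates AURKA, HMMR, NUSAP1 and PRC1, which bundles central spindle microtubules, were lower at -3.72, -3.43, -3.26, -2.81 and -2.35. The 3 that did not pass overlapped between populations. CKAP2, a spindle protein, lay at 8.62, 9.98 and 9.29, against 7.40, 10.51 and 11.15 (-0.39 ± 0.58, limma adjusted p 0.76), ANLN (anillin), of the cleavage furrow, was at -1.87 and ECT2, the exchange factor that activates RhoA there, at -0.49. Without either PNAs-A15 array CKAP2 was at -1.20 (limma adjusted p 0.031) and ANLN at -2.66 (0.00012), and without either control array CKAP2 was at 0.34, not past the threshold.

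Because each treatment has 1 array per population, leaving out either array of a treatment takes that whole pair out of the population comparison. Such a fit has fewer residual degrees of freedom than the main one, so its p-values are less secure. Without a PNAs-A15 array 56 of the 59 genes were lower past the threshold, and 11 of the 14 that had not passed did so; over all genes 1057 were then lower and 1267 higher. The 3 that still did not pass were BUB3, MYBL2 and ECT2. Without a scramble array 33 passed, and without a control array 41. Across the fits with an array left out, 77 to 1057 of all genes were lower and 10 to 1267 higher. The member counts of different fits are therefore not to be compared with each other. The 12 genes lost without a scramble array were KIF11, CENPM, SPC24, BUB1B, TTK, CDCA8, CCNB1, CCNF, AURKA, PLK4, TPX2 and PRC1, at fitted differences still between -3.02 and -2.09. Without a control array KIF11, BUB1B, TTK, CCNB1 and PLK4 were lost, at limma adjusted p-values of 0.059 to 0.17. The members' median stayed between -3.37 and -3.06 in all of these fits.

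Other genes of the cell cycle, listed by role with earlier results of these data known, are set beside the mitotic genes. Of 92 further tested mitosis genes, 33 were lower past the threshold and 0 higher, with a median of -1.27. The lowest were CDCA2, a chromatin-bound phosphatase partner (-4.19, detected on 0 CSC-rich arrays and at least 10.1-fold lower), the kinase NEK2 (-3.80), CKAP2L (-3.76) and TROAP (-3.64). The highest, none past the threshold, were E2F5 at 2.63, the cohesin subunit STAG2 at 2.03, ANAPC16 at 1.26 and RBL2 at 0.91, and STAG2 lay at 11.43, 12.41 and 11.65 in CSC-rich cells against 5.56, 11.76 and 12.07 in parental cells. Of 16 other spindle and cytokinesis genes 12 passed (median -2.87), of 25 other kinetochore genes 11 (-1.59), and of 11 genes of the MuvB complex and E2F family 1, the B-MYB relative MYBL1 at -2.53 (list median 0.01). Some of the 33 genes called, among them CENPP, KNL1, SGO1 and PKMYT1, were detected on 0 CSC-rich arrays. Such genes passed the detection filter only through their parental arrays, so their calls add no support. CENPP and KNL1 are among the 11 kinetochore calls.

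Of 48 tested DNA replication genes, 43 had fitted differences below 0; 11 were lower past the threshold and 0 higher, with a median of -1.16. The difference of this list from the mitotic genes was not tested. Thymidine kinase TK1 (-4.19), the helicase factor CDC45 (-3.35), the polymerase subunit POLD1 (-2.97) and the histone chaperone subunit CHAF1A (-2.66) led, and the origin recognition subunits ORC4 (0.87), ORC5 (0.36) and ORC3 (0.11) and the clamp loader subunit RFC1 (0.15) were the highest. Of 12 genes of G1 control and quiescence 0 were lower and 1 was higher past the threshold, with a median of 0.11. That gene was the antiproliferative BTG1, at 13.78, 14.33 and 13.95 in CSC-rich cells against 11.80, 11.56 and 11.93 in parental cells (2.26 ± 0.34, limma adjusted p 0.028). The retinoblastoma gene RB1 (1.4), GAS1 (1.22) and the CDK inhibitor CDKN1B (0.95) followed, and CCND3 (-1.87), CDKN2D (-1.27), CDK6 (-1.14) and CDK2 (-0.91) were the lowest, none past the threshold.

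**Figure D3:**
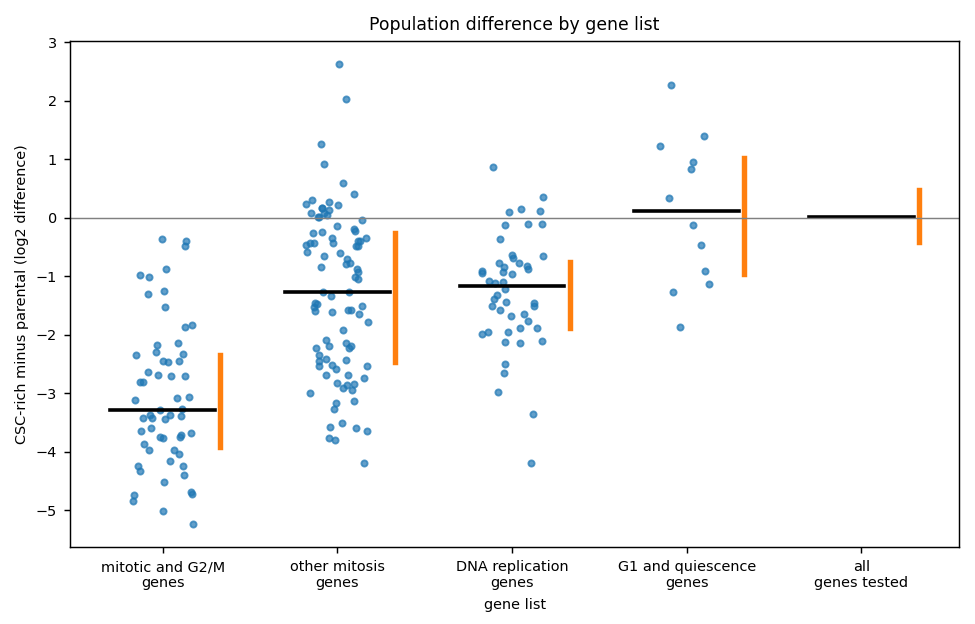
CSC-rich minus parental log2 difference of each tested gene (blue points) in the mitotic and G2/M list and in 3 other cell cycle lists, with the list's median (black line) and interquartile range (orange bar); for all genes tested only the median and range are drawn. The medians are -3.28, -1.27, -1.16, 0.11 and 0.01 from left to right.

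Treatment with PNAs-A15 was compared with the scramble, its matched control, over both populations in the same limma fit. No mitotic gene passed, 0 of 59, nor did any of the 12101 genes (0% called in each direction), with 6 mitotic genes and 490 of all genes at an unadjusted p under 0.05. The median difference of the mitotic genes was -0.01, against 0.12 over all genes, and their lowest adjusted p was 0.79. PNAs-A15 against the control likewise gave 0 calls (3 mitotic genes unadjusted, median 0.12), and the scramble against the control gave 0 (0 unadjusted, median 0.10); these comparisons share arrays. Where the CSC-rich PNAs-A15 array is left out, the contrast rests on the parental PNAs-A15 array, the one that stood apart. With 1 PNAs-A15 array its calls are not given. The median difference of the mitotic genes was then -0.11 against the scramble and -0.07 against the control.

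In CSC-rich cells the mitotic genes lay close together on the PNAs-A15 and scramble arrays, given here without a test since each group has 1 array. Their median difference was -0.15 (log2), where all genes had -0.10, and 2 of 59 were at least 2-fold higher and 2 at least 2-fold lower, beside 6.39% and 3.1% of all genes. On the unnormalized signals 0 were higher and 0 lower, and at 1.5-fold the counts were 7 and 13. The higher ones, KIFC1 (1.76) and AURKB (1.69), were not detected on the scramble array and were at least 2.72-fold and 2.28-fold higher. KIFC1 lay at 7.34, 5.57 and 6.60 on the CSC-rich arrays. FOXM1 (0.84), NDC80 (0.79) and UBE2C (0.74) followed, of which FOXM1 and NDC80 were also undetected with the scramble and at least 1.19-fold and 1.17-fold higher. NDC80 lay at 6.12, 5.33 and 5.46. The lowest were CKAP2 (-1.36), KIF18A (-1.12), BUB1B (-0.91), PLK4 (-0.85) and ASPM (-0.82), whose scramble values were the highest of their 3 CSC-rich arrays. ASPM, for example, lay at 8.31, 9.13 and 8.25, BUB1B at 7.22, 8.12 and 7.43, and PLK4 at 8.26, 9.10 and 8.55. Across the 59 genes the scramble array was the highest of the 3 CSC-rich arrays for 35 and the control array for 1. This order was not counted over all genes. The scramble minus control median was 0.29, with 45 genes above 0 and 14 below. All genes had a median of 0.08, with 6960 above 0 and 5135 below. On the unnormalized signals the median of the mitotic genes was -0.01. CDC25C (1.07, undetected on the control array and at least 2.04-fold higher) and ANLN (1.03) were 2-fold higher with the scramble, beside 0.76% of all genes, and KIFC1 was lower (-1.03, at least 1.63-fold), beside 3.01%. With PNAs-A15 set against the control, the median was 0.16, with AURKB (1.27) and KIF4A (1.02) at least 2-fold higher on the normalized scale, as 0.281% of all genes were, and 0 lower, as 0.215% were. KIF4A, undetected on the control array, was at least 1.42-fold higher. The PNAs-A15 minus scramble median changed sign with the scaling, at 0.02 with median scaling and 0.09 on unnormalized signals.

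In parental cells the differences between the PNAs-A15 and scramble arrays were wider and, after normalization, ran both ways. Of the 59, 6 were at least 2-fold higher and 14 at least 2-fold lower, beside 21% and 16.8% of all genes, and the median was -0.13 where all genes had 0.20. On the unnormalized signals 0 were higher and 24 lower. The lowest were MAD2L1 (-3.41), CKAP2 (-3.11), ANLN (-2.60), KIFC1 (-2.47) and KIF23 (-2.39). ANLN lay at 9.13, 11.73 and 11.78 on the parental arrays, KIFC1 at 8.61, 11.08 and 10.82 and KIF23 at 9.21, 11.60 and 11.82. In these 3 the PNAs-A15 array stood alone, and the scramble minus control differences were -0.04, 0.26 and -0.22. The highest were INCENP (1.54), KIF2C (1.47), CDC25C (1.29), KIF20B (1.24) and CENPM (1.09). KIF2C lay at 10.97, 9.50 and 9.54, CDC25C at 9.75, 8.47 and 8.54, KIF20B at 12.63, 11.39 and 11.56 and CENPM at 11.99, 10.90 and 10.62. By role, the spindle motors had a median of -1.26, and among these 9 genes 5 were lower and 2 higher by 2-fold or more. The kinetochore genes had a median of 0.43, with 0 lower and 1 higher by the brightest probe of each gene. By their other detected probes CENPA gave -0.95, NUF2 -2.34, CENPM 0.53 and -1.56, SPC25 2.67 and CENPE 0.59. The count of 0 lower thus depends on the probe used. Between the parental scramble and control arrays 0 of 59 were 2-fold apart either way (0.446% of all genes higher and 0.223% lower), with a median of -0.10. PNAs-A15 minus control gave 5 higher and 15 lower (20.6% and 17.2%), and 0 and 21 on the unnormalized signals.

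**Figure D4:**
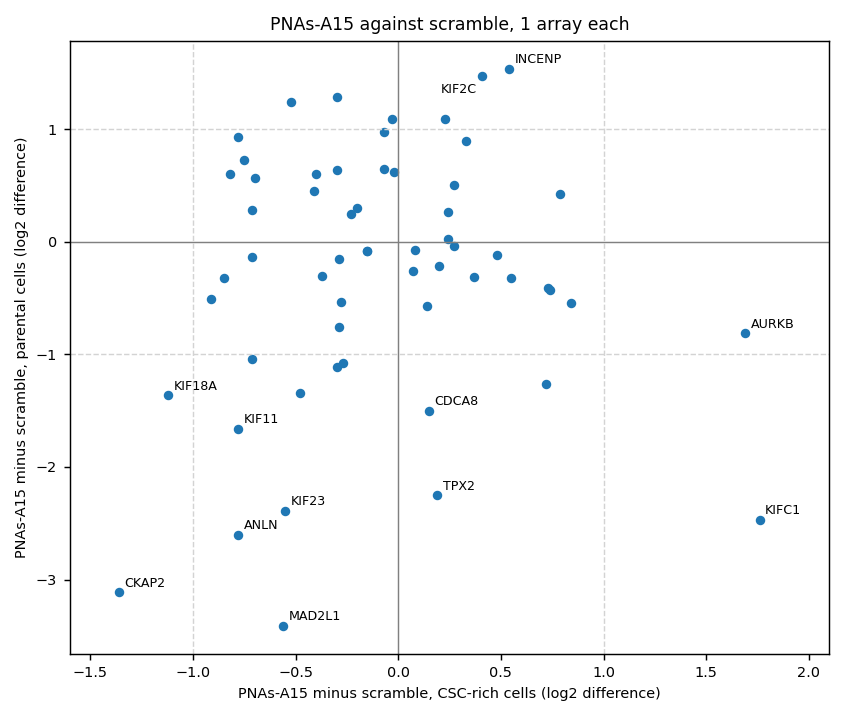
PNAs-A15 minus scramble log2 difference of each mitotic gene in CSC-rich cells (horizontal axis) and parental cells (vertical axis), 1 array per group; dashed lines mark 2-fold. The points spread from -3.41 to 1.54 in parental cells and from -1.36 to 1.76 in CSC-rich cells.

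On the parental PNAs-A15 array, probes of the same gene often gave different values. For 21 mitotic genes at least 2 probes were detected on 2 or more arrays. On PNAs-A15 minus scramble in parental cells, the probes of 13 genes were at least 2-fold apart, beside 1781 of all 3159 genes with several probes, and those of 8 at least 4-fold (38.1%, against 28.6% of the 3159). In CSC-rich cells 0 of the 21 were 2-fold apart, beside 756 of 3159. The 4 BUB3 probes gave 0.28, -6.09, -0.22 and -1.19 in parental cells. MAD2L1, the lowest gene of that comparison, was at -3.41 by its brighter probe and -0.11 by the other, and CKAP2 at -3.11 and -0.65. The microtubule-binding NUSAP1 gave 0.64 and -3.02, SMC2 0.73 and -1.49, HMMR 0.57 and -1.12 and NUF2 0.03 and -2.34. Probes of KIF11 (-1.66 and -1.94), CDK1 (-1.08 and -1.17) and AURKA (-0.57 and -0.73) gave values close to each other. The part that RNA quality or the array played in these differences was not tested. For the population difference, the probes of 7 of the 21 genes were 2-fold apart and those of 1, BUB3, 4-fold, with BUB3 probes between -0.85 and 1.93. Over all genes with several probes these counts were 598 and 89 of 3159.

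**Figure D5:**
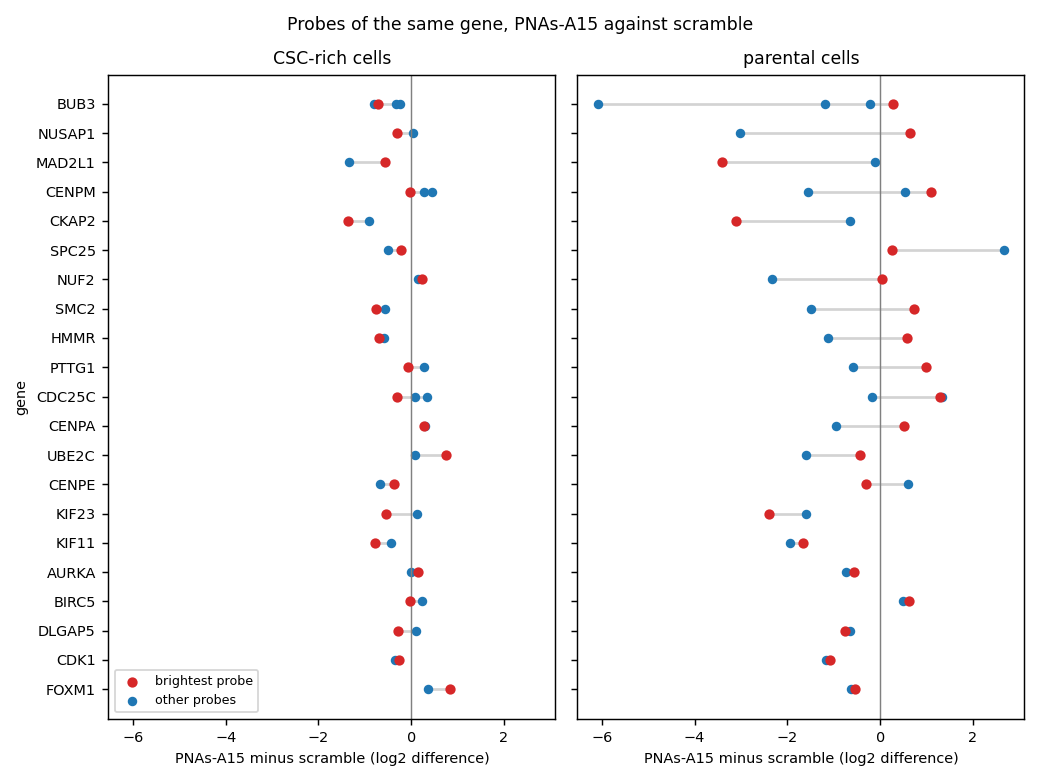
PNAs-A15 minus scramble log2 difference by each detected probe of the 21 mitotic genes with several probes, in CSC-rich cells (left) and parental cells (right); red points are the brightest probe, used for the gene, and blue points the others. The median gap between probes of a gene is 0.35 in CSC-rich cells and 1.52 in parental cells.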

How the data were processed

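The deposited table gives each probe on each array an intensity on a linear scale with its detection p-value, per the file headers. Per the submitters' processing notes the authors used GenomeStudio 2011.1, and no further step of theirs is recorded in the labels. The series matrix held the same intensity values in 100% of cells. Probes were named through a platform annotation: of 47323 probes, 30113 had 1 symbol, 8 several and 17202 were unlisted, and 30074 matched RefSeq genes (GRCh38.p14, 0 symbols changed). No build is named for the array, so no probe coordinates are given.

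Intensities were background-corrected from the deposited detection p-values and quantile-normalized with limma's neqc (limma 3.58.1, R 4.3.3, offset 16), then given as log2. A probe was kept if 2 or more arrays detected it (detection p under 0.05), and the probe with the highest mean stood for its gene (12101 genes). The number of arrays limits the precision. The tests used limma's additive model of population and treatment over 6 arrays, with 2 residual degrees of freedom, adjusted by Benjamini-Hochberg over all genes, threshold 0.05. Its spread holds array noise and any treatment effect that differs between populations together, and may be technical. Differences between single arrays were described at 2-fold without a test. A probe undetected on a side has only a bound there, counted from the lowest signal among detected probes or its own, whichever is higher. The fit was also run on simulated data with independent noise around the additive model. That simulation had no array that stood apart, and no result here rests on it.

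The members, lists and tests were chosen with earlier results of these data known. Values on every array are given, in each role, for the 2 members with the largest and the 1 with the smallest population difference, and for the 5 highest and 5 lowest members by the PNAs-A15 minus scramble difference in either population. Of the other lists the 4 lowest and the 4 highest are named. Alternatives were median scaling, unnormalized signals, other probe filters, the mean over probes, an intensity trend, no treatment term, a 1.5-fold limit and leaving out arrays.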

Additional observations from a re-analysis of the deposited data

Results flagged for a closer look

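KIFC1, the kinesin that focuses spindle poles, moved in opposite directions with PNAs-A15 in the populations: it was 1.76 (log2) above the scramble in CSC-rich cells, where the scramble array did not detect it, and -2.47 relative to the scramble in parental cells. It was the only mitotic gene at least 2-fold apart in opposite directions, a count not made over all genes. In CSC-rich cells its scramble minus control difference was -1.03, and PNAs-A15 minus control was 0.74. On unnormalized signals 0 mitotic genes were 2-fold higher or lower with PNAs-A15 than with the scramble in CSC-rich cells. The parental value rests on the PNAs-A15 array that stood apart. Each value rests on 1 array per group, and the difference between the populations was not tested.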

How the results depend on the processing

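No paired analysis was possible because each group has 1 array and the labels give no replicate numbers, beyond the treatment term, which compares the populations within the 3 treatment pairs. The 45 mitotic genes lower in CSC-rich cells became 12 on unnormalized signals (median -2.58; all genes 19 lower and 2 higher, against 178 and 101) and 0 without a filter on dim probes (all genes 0 and 0), where 20046 genes were tested. Other settings gave 39 to 49, and leaving out an array gave 33 to 56 lower and 0 to 0 higher, with medians of -3.37 to -3.06. Over all genes, leaving out an array gave 77 to 1057 lower and 10 to 1267 higher, no treatment term 344 and 294, and an intensity trend 239 and 192. BUB3 reversed to 0.24 with the mean over probes and CKAP2 to 0.34 without a control array, neither past the threshold; without a PNAs-A15 array CKAP2 was at -1.20.

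Treatment contrasts kept 0 calls except where an array was left out. PNAs-A15 against scramble then gave 0 to 14 lower and 0 to 2 higher (medians -0.20 to -0.01), and against control 0 to 13 and 0 to 5 (-0.07 to 0.19), the high counts without the CSC-rich PNAs-A15 array. Unnormalized signals moved these medians to -0.26 and -0.24; for PNAs-A15 against scramble, detection on all 6 arrays gave -0.10 and the mean over probes -0.11.

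Medians of single-array differences also moved. On unnormalized signals, CSC-rich minus parental became -1.84 (PNAs-A15) and -2.94 (control). PNAs-A15 minus scramble became 0.09 in CSC-rich cells, reversed, and -0.85 in parental cells. Scramble minus control in CSC-rich cells became -0.01, reversed, and PNAs-A15 minus control in parental cells -0.67. With median scaling CSC-rich minus parental (PNAs-A15) was -2.80, PNAs-A15 minus scramble 0.02 in CSC-rich cells, reversed, and -0.25 in parental cells, and PNAs-A15 minus control -0.40 in parental cells. With the mean over probes the same 4 were -2.71, -0.10, -0.27 and -0.20, and detection on all 6 arrays gave -0.28 for PNAs-A15 minus scramble in CSC-rich cells. The cause was not tested. At 1.5-fold, scramble minus control in CSC-rich cells had 15 genes higher in place of 2. Probes undetected on some or all CSC-rich arrays are near background there, which limits how far their fitted differences can be read as sizes.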
